A study of Homo sapiens with 12 samples.

Results

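The results concern 44 human genes that build dolichol-linked sugars and glycosylphosphatidylinositol (GPI) anchors, out of 19305 genes with a row in the count files. They were chosen by name: the PIG genes of GPI synthesis with a single letter, the numbered ALG genes of the dolichol-linked oligosaccharide, and listed genes such as DPM1 to DPM3, DPAGT1 and GPAA1. This choice was made with earlier results of these data known. PIGR, an immunoglobulin receptor, shares the name pattern and is no member. All 44 were found, each under 1 RefSeq transcript accession. The values are ribosome profiling reads, short mRNA fragments shielded by ribosomes and counted over each coding sequence. HEK293T, a human embryonic kidney cell line, gave 8 libraries. All of them were exposed to sodium arsenite, an oxidative stressor, so no untreated HEK293T group is part of these data. They carry control siRNA or eIF2A siRNA, and an immunoprecipitation (IP) label naming CBP80 or eIF4E, the cap-binding proteins of nuclear and cytoplasmic complexes. H9, a human embryonic stem cell line, gave 4 libraries with control shRNA or eIF2A shRNA. Their titles name neither arsenite nor an IP. Each of the 6 groups holds 1 library of set 1 and 1 of set 2. Separate cultures for the 2 sets are not named in the labels, and the spread that p-values rest on may thus be technical. Knockdowns were RNA interference, which can leave some of the target, and reads follow both mRNA level and translation.

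Dolichol is a long membrane lipid of the endoplasmic reticulum that carries sugars for glycosylation. On its cytosolic side the ALG enzymes assemble an oligosaccharide on dolichol pyrophosphate; the precursor is flipped, extended in the lumen and moved as a block onto asparagines of new proteins. Dolichol phosphate mannose, made by the DPM synthase, donates the luminal mannoses and also the mannoses of the GPI anchor, a glycolipid assembled by the PIG enzymes that holds many proteins on the cell surface. The DPM reaction is therefore shared by both routes. DPM1 is the catalytic subunit, DPM3 tethers it to the membrane, and DPM2 stabilises DPM3 and also associates with the first enzyme of GPI synthesis.

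Coding reads per library numbered 4331459 to 5775177 in HEK293T and 937990 to 1878700 in H9. Levels are given as CPM, the count per 1000000 coding reads of a library, and are not compared between genes because coding lengths were not used here. Libraries with CBP80 and eIF4E labels of the same siRNA and set had a chi-square over its degrees of freedom of 1.008 to 1.028, where 1 is sampling noise; sets of a group reached 3.951 to 5.522. Each such pair was therefore summed and counted as 1 sample, which leaves 2 control and 2 eIF2A siRNA samples. H9 libraries of 1 set with different shRNA labels lay at 1.041 and 1.074, and those of 1 shRNA label from different sets at 3.131 and 2.747. The target EIF2A (NM_032025) went against its label in HEK293T set 1. There the sample labelled eIF2A siRNA held 96.0 CPM and its control 83.2 CPM. In set 2 the corresponding values were 46.7 and 83.5 CPM. In H9, EIF2A held 103.4 and 60.9 CPM with control shRNA and 110.2 and 68.2 CPM with eIF2A shRNA (set 1, set 2), so its values followed the set. In HEK293T, reads with a single alignment fell outside coding sequences for 40.0 and 35.2% in control and for 51.1 and 42.3% with the eIF2A siRNA label (set 1, set 2). The part of this shift in the results below was not tested. Of 9 pluripotent stem cell markers 8 had a median of at least 1 CPM in H9, with a summed level of 4904 to 5178 CPM, against 98.3 to 116.3 CPM in HEK293T; the defining marker POU5F1 was listed at 0 in all 12 libraries. Fibroblast markers summed to 267.2 to 438.2 CPM in H9 and to 17.3 to 22.6 CPM in HEK293T. Of these 6 markers, 4 had a median of at least 1 CPM in H9 and 3 in HEK293T. The H9 sum was mostly COL1A1 (110.7 to 178 CPM) and COL1A2 (143.3 to 255.9 CPM). DCN and LUM were at 0 in H9, and LUM held 2.61 to 4.22 CPM in HEK293T.

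In the HEK293T samples labelled eIF2A siRNA, some members had fewer ribosome footprints than in control. They included part of the genes of the mannose donor synthase, of the first dolichol-linked sugar and of the first GPI steps. No member passed the main test for more. The members that fell were DPM3 and DPM2 of the mannose donor synthase, DPAGT1 of the first dolichol-linked sugar, ALG8 of the last glucoses, PIGH, PIGP and PIGL of the first 2 steps of GPI synthesis, PIGO of its phosphoethanolamine transfer, and GPAA1 of the transamidase. These are 9 of the 43 members tested, or 20.9%, at an adjusted p under 0.05 (edgeR's quasi-likelihood test, Benjamini-Hochberg over all genes tested). Over all 12331 genes tested, 6.29% were called lower, 6.15% higher and 12.4% in either direction. The members' median log2 change was -0.19 against 0.00 over all genes tested, and 31 members, 72.1%, had a negative change against 49.5% of all genes. Because the members were chosen with earlier results of these data known, their shares beside all genes are no independent support. In 19 members both samples labelled eIF2A siRNA lay below both controls, a state met by 20.6% of all genes, and in 7 both lay above, against 35.9% of all genes. That background uses CPM, whereas the fit scales libraries by TMM, edgeR's trimmed mean of M-values. TMM divides all genes called into 776 lower and 758 higher; on library sizes alone the split was 294 and 739, and the members called numbered 5, all lower: DPM3, DPM2, DPAGT1, PIGL and PIGH. Without the set 1 sample that went against its label again 5 members passed, DPM3, DPM2, DPAGT1, PIGL and PIGH, and without the set 2 control 3 did: DPM3, DPAGT1 and PIGL.

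**Figure D1:**
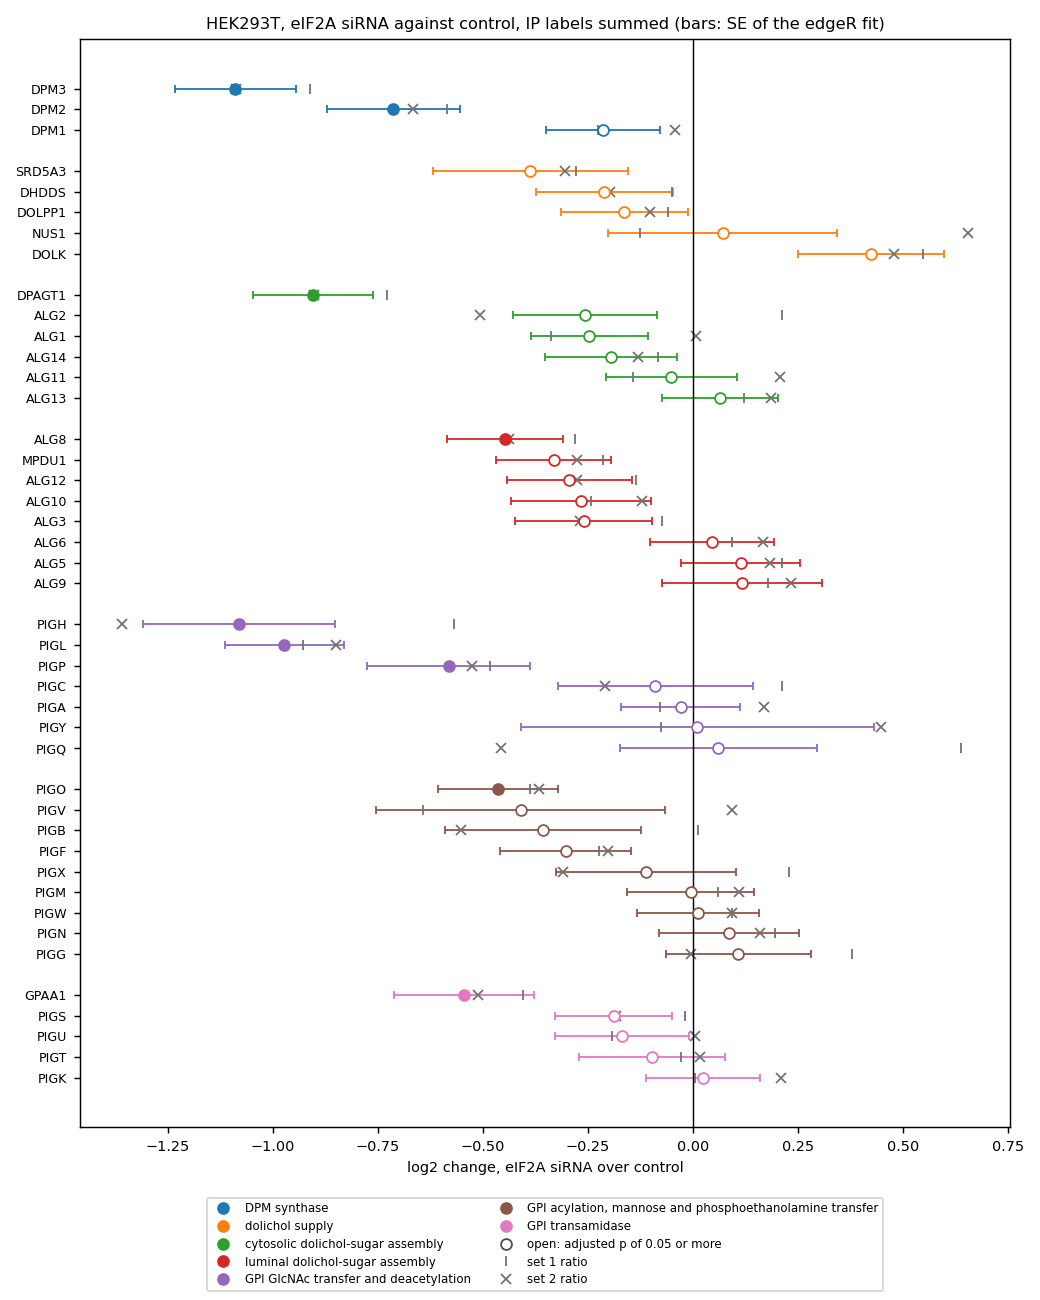
Log2 change of each tested member with the eIF2A siRNA label over control in HEK293T (x axis, edgeR, bars are SE), grouped by step of the pathway and with filled points for an adjusted p under 0.05; ticks and crosses give the CPM ratio within set 1 and set 2 on a log2 scale, with no TMM scaling. The 9 filled points all lie left of 0, and DPM3 at -1.09 is the lowest of them.

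DPM3 (NM_018973) had the most negative change of all members. In control siRNA it held 70.9 and 74.3 CPM with the CBP80 label and 61.8 and 81.3 CPM with the eIF4E label (set 1, set 2). With the eIF2A siRNA label it held 34.1 and 32.1 CPM and 36.4 and 40.5 CPM. The groups did not overlap under either IP label, and all 4 libraries labelled eIF2A siRNA lay within the range of 32.1 to 40.5 CPM. With labels summed, the mean fell from 71.9 ± 7.85 CPM in control to 35.9 ± 0.843 CPM (SD, n = 2). The log2 change was -1.09 ± 0.14 (SE, edgeR adjusted p = 6.87e-08). The ratio was 0.531 in set 1 (95% interval 0.466 to 0.604) and 0.471 in set 2 (0.416 to 0.532). These are exact binomial intervals on the reads of single samples and cover counting error only. DPM3 was lower in both sets and EIF2A in set 2 alone, and a link between the 2 genes was not tested.

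DPM2 (NM_003863), the subunit that stabilises DPM3, was lower as well. It held 34.3 and 30.6 CPM with the CBP80 label and 26.9 and 32.3 CPM with the eIF4E label in control. With the eIF2A siRNA label the values were 17.2 and 18.1 CPM and 23.8 and 21.3 CPM. The groups did not overlap under either IP label, and the gap was wider under the CBP80 label. Summed, 31.0 ± 0.548 CPM in control stood against 20.1 ± 0.445 CPM (SD, n = 2), a log2 change of -0.71 ± 0.16 (SE, edgeR adjusted p = 0.00122). Without the set 2 control the change was -0.68 and no longer passed.

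DPM1 (NM_001317034), the catalytic subunit, did not pass the threshold. Control values were 120.0 and 125.2 CPM with the CBP80 label and 121.4 and 118.2 CPM with the eIF4E label. With the eIF2A siRNA label they were 105.2 and 114.9 CPM and 101.1 and 121.9 CPM. Under the CBP80 label the groups did not overlap, and DPM1 passed there when the set was taken as a block. Under the eIF4E label the groups overlapped, since the highest of the 4 values came from the eIF2A siRNA label. Summed, 120.7 and 122.0 CPM in control stood above 103.2 and 118.5 CPM with the eIF2A siRNA label, without overlap. The summed log2 change was -0.21 ± 0.14 (SE, edgeR adjusted p = 0.314), with a ratio of 0.855 in set 1 (0.788 to 0.928) and 0.971 in set 2 (0.897 to 1.05).

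**Figure D2:**
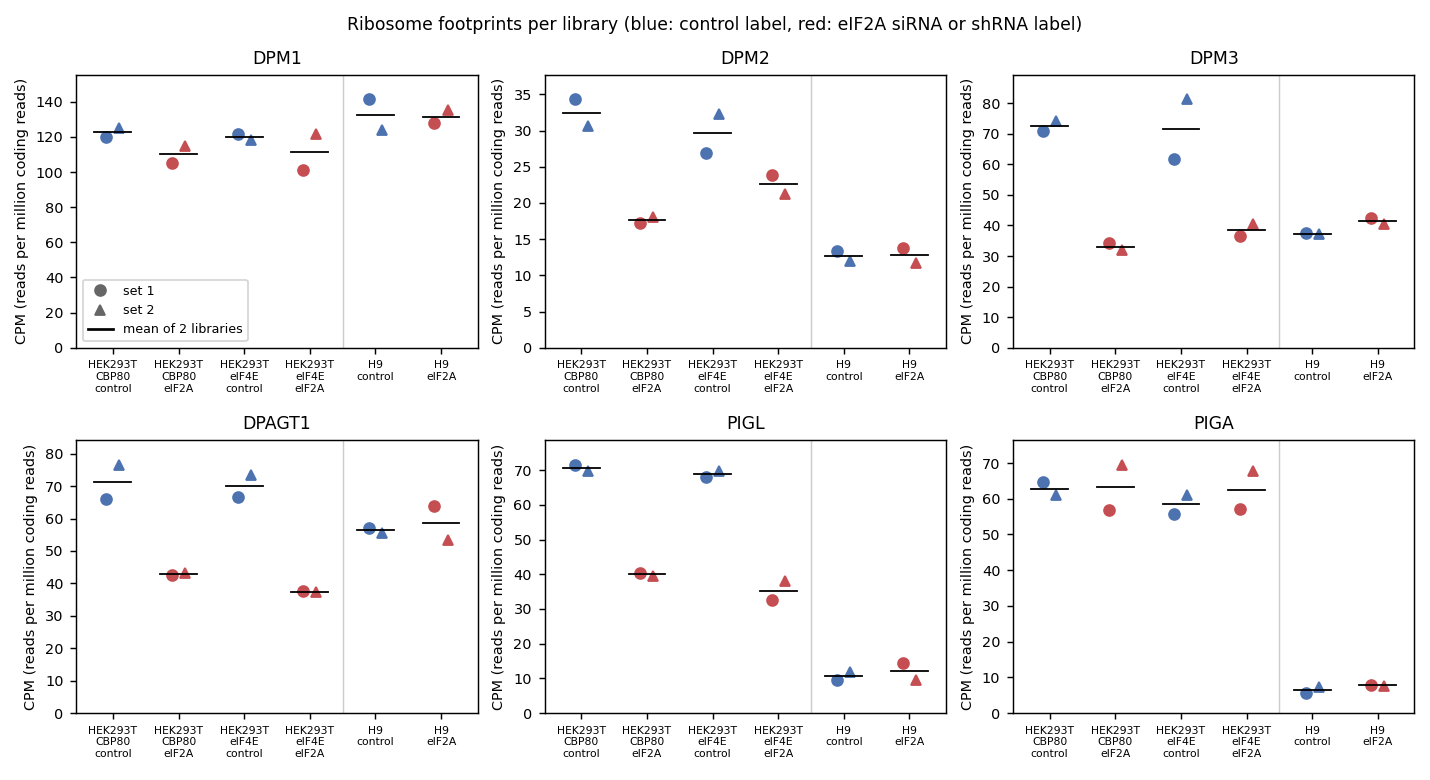
Level of 6 members in each of the 12 libraries (y axis, CPM; x axis, cell line, IP label and siRNA or shRNA label; circles are set 1, triangles set 2, black lines the mean of 2 libraries; blue is control and red the eIF2A label). DPM2, DPM3, DPAGT1 and PIGL are lower in the red HEK293T libraries, DPM1 and PIGA are not clearly so, and no panel shows such a gap in H9.

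Subunit counts can be set against each other within a library, which removes library scaling. In control siRNA there were 55.0 and 63.5 DPM3 reads per 100 DPM1 reads (set 1, set 2, labels summed), and with the eIF2A siRNA label 34.2 and 30.8. The groups did not overlap, and the mean log2 ratio differed by -0.87. For DPM2 the values were 25.3 and 25.7 per 100 DPM1 reads in control and 19.7 and 16.7 with the eIF2A siRNA label, a mean log2 difference of -0.49. A two-sided exact permutation test gave p = 0.333 for both ratios, the smallest that 2 samples against 2 allow. In H9 there were 26.5 and 29.9 DPM3 reads per 100 DPM1 reads with control shRNA and 33.3 and 29.9 with eIF2A shRNA, so the labels were not separated there. By IP label, the DPM3 ratios did not overlap under either label. Those of DPM2 did not overlap under the CBP80 label, with a mean log2 difference of -0.72, but overlapped under the eIF4E label, where set 1 held 22.1 DPM2 reads per 100 DPM1 reads in control and 23.5 with the eIF2A siRNA label. The mean log2 difference there was -0.28 (two-sided exact permutation p = 0.667).

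**Figure D3:**
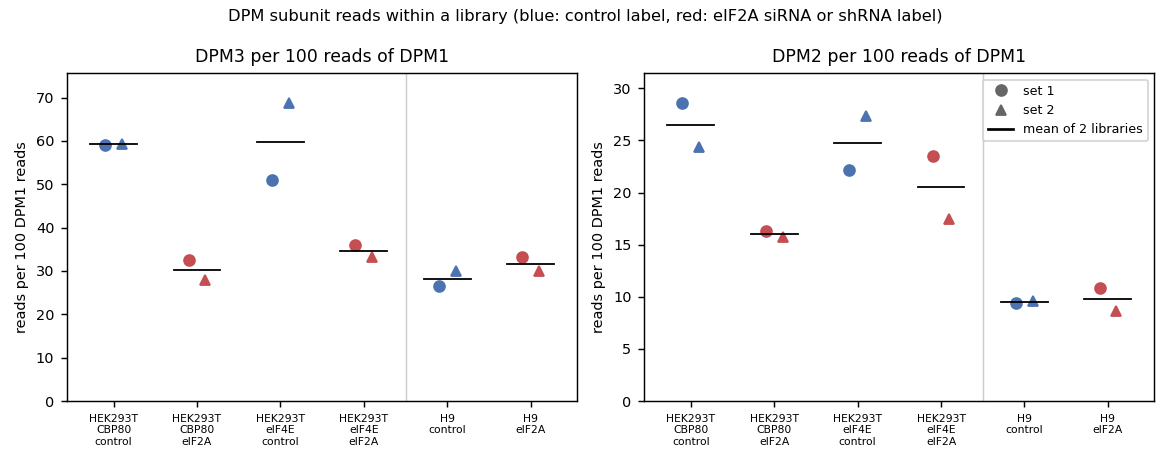
DPM3 reads (left) and DPM2 reads (right) per 100 DPM1 reads in each of the 12 libraries (y axis; x axis, cell line, IP label and siRNA or shRNA label; circles are set 1, triangles set 2, lines the mean of 2). For DPM3 the 4 control HEK293T libraries lie between 50.9 and 68.8 and the 4 labelled eIF2A siRNA between 27.9 and 36.0.

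The upstream sequences of DPM3, DPM2, PIGL and DPAGT1 are shown, 4 of the 9 members that fell in HEK293T, picked after their values were seen. DPM3 and DPM2 are subunits of the same enzyme. The 150 bases before the annotated start are from RefSeq (GRCh38.p14), 5′ to 3′ on the gene's strand, and capitals mark matches to motifs named below. They run over chr1:155140532-155140681 (minus strand) for DPM3, chr9:127937855-127938004 (minus strand) for DPM2, chr17:16217060-16217209 (plus strand) for PIGL and chr11:119101854-119102003 (minus strand) for DPAGT1.
DPM3: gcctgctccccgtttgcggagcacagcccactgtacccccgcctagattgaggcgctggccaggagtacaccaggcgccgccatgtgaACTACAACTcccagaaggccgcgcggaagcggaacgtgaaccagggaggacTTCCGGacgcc
DPM2: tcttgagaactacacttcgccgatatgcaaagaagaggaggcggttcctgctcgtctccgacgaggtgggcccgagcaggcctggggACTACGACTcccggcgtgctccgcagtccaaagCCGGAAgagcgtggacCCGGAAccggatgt
PIGL: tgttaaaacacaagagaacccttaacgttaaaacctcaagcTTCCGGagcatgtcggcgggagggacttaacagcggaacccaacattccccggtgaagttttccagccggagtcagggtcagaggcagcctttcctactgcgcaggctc
DPAGT1: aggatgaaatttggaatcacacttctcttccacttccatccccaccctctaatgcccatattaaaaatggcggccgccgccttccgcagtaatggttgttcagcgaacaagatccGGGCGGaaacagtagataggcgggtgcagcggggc

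RefSeq's promoter table held 38 of the 44 members, and motifs were searched on both strands of the 250 bases before each start. DPM2 and DPM3 both carried ACTACNANT, a relaxed core of the element bound by the zinc finger protein ZNF143, with its first base 63 and 62 bases before the start. It was found in 3 of the 38 members, ALG1 being the other, and in 2.52% of 27305 genes. This motif was searched after the sequences had been read, first in a longer form whose counts are not given here. Those sequences came from members that fell, and the genes counted next include DPM2 and DPM3. Their shares are therefore no independent support. Of the 423 tested genes that carry it, 9.46% were called lower and 3.55% higher with the eIF2A siRNA label in HEK293T, with a median log2 change of -0.05. Over the 10082 tested genes with a promoter entry the shares were 6.32 and 6.14% and the median 0.00. Shares called lower and higher were 26.7 and 0% for the 15 tested genes with the endoplasmic reticulum stress element named below (median -0.29), 7.12 and 5.21% for the ETS core and 7.09 and 5.32% for CCAAT. For the other motifs 5.98 to 7.01% were called lower and 5.73 to 7.71% higher. CCGGAA, the core bound by ETS factors, stood in DPM3, DPM2 and PIGL among 13 members, and in 17.2% of all genes. GGGCGG, the GC box bound by SP1, stood in DPAGT1 and, upstream of the bases printed, in DPM2 among 26 members, and in 46.2% of all genes. The endoplasmic reticulum stress element, CCAAT and CCACG with 9 bases between them, was found in ALG12 alone among members, and in 0.0916% of all genes. CCAAT alone, which that element contains, was found in 15 members and 37.0% of all genes. ACGTGG, a core bound by XBP1 and ATF6, was found in 10 members, with DPM3 matching at another of its annotated starts, and in 10.1% of all genes, and GCGCATGC, part of the NRF1 site, in 1 member and 3.22%. TGATGNAA, a core of the composite element bound by ATF4, matched 0 members and 3.89% of all genes. A match describes letters in this window and not a site in use.

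None of the genes that supply dolichol passed the threshold. Their 5 log2 changes ranged from -0.39 to 0.42 with a median of -0.16. SRD5A3, which acts in the last step from polyprenol to dolichol, had the lowest, at 7.30 and 6.21 CPM in control and 6.01 and 5.03 CPM with the eIF2A siRNA label (edgeR adjusted p = 0.281). DOLK, the kinase that makes dolichol phosphate, had the highest value of all members. It held 14.8 and 13.8 CPM in control and 21.6 and 19.2 CPM with the eIF2A siRNA label, so the groups did not overlap. Its log2 change of 0.42 ± 0.17 did not pass (SE, edgeR adjusted p = 0.0917). With the set as a replicate block, DOLK passed in the summed samples and under both IP labels. Its ratio was 1.46 in set 1 (1.19 to 1.80) and 1.39 in set 2 (1.12 to 1.75).

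Of the members grouped with cytosolic assembly, DPAGT1 (NM_001382) fell and the other 5 did not pass. DPAGT1 transfers the first sugar phosphate to dolichol phosphate and is the target of tunicamycin. In control it held 66.1 and 76.6 CPM with the CBP80 label and 66.6 and 73.4 CPM with the eIF4E label. With the eIF2A siRNA label it held 42.4 and 43.3 CPM and 37.5 and 37.4 CPM. Every control library was above every library labelled eIF2A siRNA. Summed means were 70.8 ± 6.21 and 40.1 ± 0.123 CPM (SD, n = 2), with a log2 change of -0.90 ± 0.14 (SE, edgeR adjusted p = 4.76e-06). The gene span of DPAGT1 overlaps that of H2AX in RefSeq, and the sources used here do not state whether counting used strand. The highest change of this step was 0.07 for ALG13, part of the transferase of the second sugar.

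Of 8 members grouped with luminal assembly, 1 fell. This group includes MPDU1 and ALG5, which makes dolichol phosphate glucose on the cytosolic face for use in the lumen. ALG8 (NM_001007027), which adds the second glucose, held 71.3 and 76.8 CPM in control and 58.7 and 56.7 CPM with the eIF2A siRNA label. The groups did not overlap, and the log2 change was -0.45 ± 0.14 (SE, edgeR adjusted p = 0.0209). The step's median was -0.26, and its highest value was 0.12 for the mannosyltransferase ALG9. MPDU1, needed for the use of both dolichol phosphate sugars and named after its values were seen, did not pass but had an interval under 1 in both sets, 0.862 (0.777 to 0.955) and 0.826 (0.749 to 0.910). The call of ALG8 was lost on library sizes alone and without the set 1 control, the set 2 control or the set 1 sample labelled eIF2A siRNA. Reads of ALG10 and its near copy ALG10B can be split by the counting, and ALG10B had a change of -0.58 (edgeR adjusted p = 0.107).

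The first steps of GPI synthesis held 3 of the 9 members that fell, among 7 tested. The other 4 did not pass, and the median log2 change here was -0.09, the nearest to 0 of all steps. PIGL (NM_004278) removes the acetyl group from the first GPI intermediate. In control it held 71.6 and 69.6 CPM with the CBP80 label and 68.0 and 69.7 CPM with the eIF4E label. With the eIF2A siRNA label it held 40.5 and 39.5 CPM and 32.6 and 37.9 CPM. Control libraries lay within 68.0 to 71.6 CPM and those labelled eIF2A siRNA did not reach this range. Summed means were 69.7 ± 0.0836 and 37.7 ± 1.42 CPM (SD, n = 2), with a log2 change of -0.97 ± 0.14 (SE, edgeR adjusted p = 1.05e-06). 

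PIGH (NM_004569) and PIGP (NM_016430) are accessory subunits of the GlcNAc transferase that starts the anchor. PIGH rested on few reads, 86 and 116 in the summed controls and 50 and 53 with the eIF2A siRNA label. It held 7.56 and 12.2 CPM in control and 5.10 and 4.76 CPM with the eIF2A siRNA label, a log2 change of -1.08 ± 0.23 (SE, edgeR adjusted p = 0.000722). Its groups did not overlap, but the set 2 control carried much of the gap. Without it the change was -0.69 and did not pass. The span of PIGH overlaps those of GPHN and PLEKHH1 in RefSeq. PIGP counted 136 and 135 reads in the summed controls and 84 and 110 with the eIF2A siRNA label. Summed means were 13.1 ± 1.59 and 9.22 ± 0.930 CPM (SD, n = 2), in groups that did not overlap. It had a log2 change of -0.58 ± 0.19 (SE, edgeR adjusted p = 0.0347), and its call was lost on library sizes alone, without the set 2 control and without the set 1 sample labelled eIF2A siRNA.

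The other tested subunits of this transferase, PIGA, PIGC, PIGQ and PIGY, did not pass. PIGA, the catalytic subunit, held 60.1 and 61.0 CPM in control and 57.0 and 68.7 CPM with the eIF2A siRNA label, and the groups overlapped. PIGC had a change of -0.09 ± 0.23 (SE, edgeR adjusted p = 0.843). PIGQ had the highest change of the step, 0.06 ± 0.23 (SE, edgeR adjusted p = 0.903), and its sets disagreed, with a ratio of 1.56 in set 1 (1.12 to 2.17) and 0.729 in set 2 (0.496 to 1.07). PIGY is translated from an mRNA that also encodes PYURF, so their reads come from the same transcripts. PIGY had 1.05 to 1.93 CPM in the 4 summed samples and a change of 0.01, and PYURF one of 0.09, neither past the threshold.

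In the later steps that add an acyl chain, mannoses and phosphoethanolamine, 1 of 9 tested members fell. PIGO (NM_032634) transfers phosphoethanolamine to the third mannose, the group through which proteins are attached. It held 53.1 and 53.3 CPM in control and 40.6 and 41.3 CPM with the eIF2A siRNA label. The samples of each group lay close together, and the log2 change was -0.46 ± 0.14 (SE, edgeR adjusted p = 0.0209). Its call was lost under the same 4 settings as that of ALG8. The highest value of the step was 0.11 for PIGG, another phosphoethanolamine transferase, whose ratio was 1.30 in set 1 (1.07 to 1.58) and 0.997 in set 2 (0.799 to 1.24). PIGZ, which adds a further mannose, had too few reads to be tested, at 0.791 and 0.632 CPM in control and 0.815 and 0.359 CPM with the eIF2A siRNA label.

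In the transamidase, which cuts the signal peptide of the protein and joins it to the anchor, 1 of 5 subunits fell. GPAA1 (NM_003801), which holds the GPI lipid, went from 22.9 and 23.8 CPM in control to 17.3 and 16.7 CPM with the eIF2A siRNA label. The groups did not overlap, and the log2 change was -0.54 ± 0.17 (SE, edgeR adjusted p = 0.0206). This call was lost under the same settings as that of ALG8 and under DESeq2. PIGK, the catalytic subunit, had the highest value of the complex, 0.02 ± 0.14, with 175.4 and 165.8 CPM in control and 176.1 and 191.8 CPM with the eIF2A siRNA label. These groups did not overlap, but the change did not pass (edgeR adjusted p = 0.936).

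Within each set, 10 of 43 members, 23.3%, had a 95% interval of the CPM ratio under 1 in both sets, against 9.70% of all genes tested. They were the 9 members called and MPDU1. Intervals above 1 in both sets were seen for 2 members, DOLK and ALG5, or 4.65%, against 18.8% of all genes. Across the 43 members, changes in set 1 and set 2 had a Pearson r of 0.578 and a Spearman rho of 0.473, and across all genes tested 0.520 and 0.576. Genes share the libraries and are not independent replicates.

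By IP label, the members called under either label had a negative change under both, while some members that were not called changed sign, such as PIGU with -0.39 under CBP80 and 0.09 under eIF4E. In the fit of 8 libraries, 6 members fell among CBP80-labelled libraries, where 2.47% of the 11778 genes tested were called lower and 4.02% in either direction: DPM3, DPM2, DPAGT1, PIGL, PIGH and PIGO. Among eIF4E-labelled libraries 3 fell, where 2% of genes were called lower and 3.23% in either direction: DPM3, DPAGT1 and PIGL. DPM3 had a log2 change of -1.22 ± 0.16 with CBP80 (SE, edgeR adjusted p = 0.0031) and of -0.97 ± 0.15 with eIF4E (edgeR adjusted p = 0.00788). DPM2 had -0.96 ± 0.16 with CBP80 (edgeR adjusted p = 0.0111) and -0.47 ± 0.16 with eIF4E (edgeR adjusted p = 0.104). The difference between both labels was tested with siRNA and set as a block. It was 0.50 ± 0.18 for DPM2 (SE, unadjusted p = 0.00952, edgeR adjusted p = 0.995), so a dependence on the label was not shown. Of 42 members tested 0 passed this interaction test and 2 had an unadjusted p under 0.05, DPM2 and PIGU; DESeq2 called 0, and over all genes edgeR called 0%. Between the eIF4E and CBP80 labels themselves 0 members passed in edgeR and in DESeq2, where 0.0509% of all genes passed in edgeR, and 2 members, DOLK and PIGT, had an unadjusted p under 0.05. Leaving out the set 2 control or the set 1 library labelled eIF2A siRNA of the CBP80 label left 1 member called there, and leaving out the set 2 control of the eIF4E label left 0 called there. The libraries of both labels could hardly be told apart, so these calls are not independent of each other or of the summed fit. The fit of 8 libraries counted them as separate samples, with 4 residual degrees of freedom against 2 in the summed fit. Its p-values, also with the set as a block, thus rest on fewer separate samples than it assumes.

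In H9, no member passed the test between eIF2A shRNA and control shRNA. Of 37 members tested, 0 passed in edgeR and 0 in DESeq2, 0 had an unadjusted p under 0.05 in edgeR, and over all 9751 genes tested 0% were called. The median log2 change of the members was 0.01, with a range from -0.70 to 0.70. DPM3 held 37.4 and 37.1 CPM with control shRNA and 42.6 and 40.5 CPM with eIF2A shRNA, a log2 change of 0.16 ± 0.21. DPM2 held 13.3 and 11.9 CPM and 13.8 and 11.7 CPM, and DPM1 held 141.4 and 123.7 CPM and 127.7 and 135.4 CPM. DPAGT1 held 57.1 and 55.6 CPM and 63.9 and 53.3 CPM, a change of 0.07 ± 0.19. PIGL held 9.51 and 11.9 CPM and 14.4 and 9.59 CPM, a change of 0.23 ± 0.36. In all of these but DPM3 the groups overlapped, and in DPM3 both eIF2A shRNA libraries were the higher ones. EIF2A was not lower with eIF2A shRNA in either set, and depth was lower than in HEK293T, so PIGH rested on 3 to 8 reads a library. PIGY had 0 reads with control shRNA in set 2, which allows up to 1.99 CPM, and PIGZ had 0 with control shRNA in set 1 and with eIF2A shRNA in set 2, which allows up to 1.90 and 3.20 CPM.

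Whether the difference in HEK293T departs from that in H9 was tested as an interaction, chosen after the data were seen. Cell line, siRNA against shRNA, the arsenite and IP labels and depth differ together in this contrast and cannot be told apart. EIF2A was not lower with eIF2A shRNA in either H9 set. The log2 difference of differences was -1.24 ± 0.27 for DPM3 (SE, edgeR adjusted p = 0.206), -0.97 ± 0.25 for DPAGT1 (0.209) and -1.20 ± 0.39 for PIGL (0.427). Of 43 members 0 passed in edgeR and 0 in DESeq2, 4 had an unadjusted p under 0.05 in edgeR, and 0% of 12911 genes were called. This outcome depends on the fit: with the set as a block, DPM3, DPAGT1 and PIGL passed (edgeR adjusted p = 2.72e-05, 0.000359 and 0.0319), and H9 libraries differed more between sets than between shRNA labels.

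Between H9 and HEK293T controls, subunits of the transamidase differed in both directions, and 2 of the 3 subunits of the DPM synthase were lower in H9. Of 42 members tested, 12 were lower and 14 higher in H9, 28.6 and 33.3%, where 37.3% of all 12307 genes tested were called lower, 34.5% higher and 71.8% in either direction. Both shares are near or under those of all genes and set the members in no way apart. Cell line, the arsenite and IP labels and depth differ together between these groups and cannot be told apart. The HEK293T controls are the same samples as in the siRNA comparison.

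Counts by step are read beside the 37.3% of all genes called lower and 34.5% called higher in H9. The GlcNAc transferase and the deacetylase of GPI synthesis held 4 of the 12 members that were lower in H9, PIGA, PIGH, PIGP and PIGL. PIGQ was higher, at 1.31 ± 0.30 (SE, edgeR adjusted p = 2.84e-05). PIGA, the catalytic subunit, held 60.1 and 61.0 CPM in HEK293T control and 5.71 and 7.28 CPM in H9 control, a log2 difference of -3.38 ± 0.28 (SE, edgeR adjusted p = 1.91e-31). PIGL went from 69.8 and 69.7 CPM to 9.51 and 11.9 CPM, a difference of -2.86 ± 0.25 (edgeR adjusted p = 1.33e-28). PIGH differed by -2.07 ± 0.46 (edgeR adjusted p = 1.74e-05). No group overlapped in these 3 genes. ALG14, which anchors ALG13 to the membrane, held 27.4 and 26.4 CPM in HEK293T and 6.34 and 4.63 CPM in H9, a difference of -2.44 ± 0.33 (edgeR adjusted p = 3.52e-13), while ALG13 differed by -0.09 ± 0.18 (edgeR adjusted p = 0.673).

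The higher members were led by SRD5A3, with 7.30 and 6.21 CPM in HEK293T and 46.3 and 33.1 CPM in H9, a log2 difference of 2.39 ± 0.25 (SE, edgeR adjusted p = 2.64e-21). The transamidase was split by subunit. PIGT held 17.8 and 15.8 CPM in HEK293T and 85.6 and 84.7 CPM in H9, a difference of 2.18 ± 0.19 (edgeR adjusted p = 8.91e-30), and GPAA1 differed by 1.57 ± 0.19 (edgeR adjusted p = 2.05e-16). PIGK, its protease, held 175.4 and 165.8 CPM in HEK293T and 48.8 and 63.5 CPM in H9. All 5 subunits passed the test, 3 higher and 2 lower in H9, where 71.8% of all genes were called in either direction. The luminal mannosyltransferase ALG9 differed by 1.60 ± 0.24 (edgeR adjusted p = 6.76e-11). Of the 8 members grouped with luminal assembly, 4 were higher and 0 lower.

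Within the DPM synthase, DPM3 and DPM2 were lower in H9 control than in HEK293T control. DPM3 differed by -1.11 ± 0.20 (SE, edgeR adjusted p = 5.84e-08), DPM2 by -1.45 ± 0.26 (edgeR adjusted p = 9.4e-08) and DPM1 by -0.03 ± 0.16 (edgeR adjusted p = 0.870). Both comparisons share the HEK293T control samples, so these values are given side by side and are not independent.

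**Figure D4:**
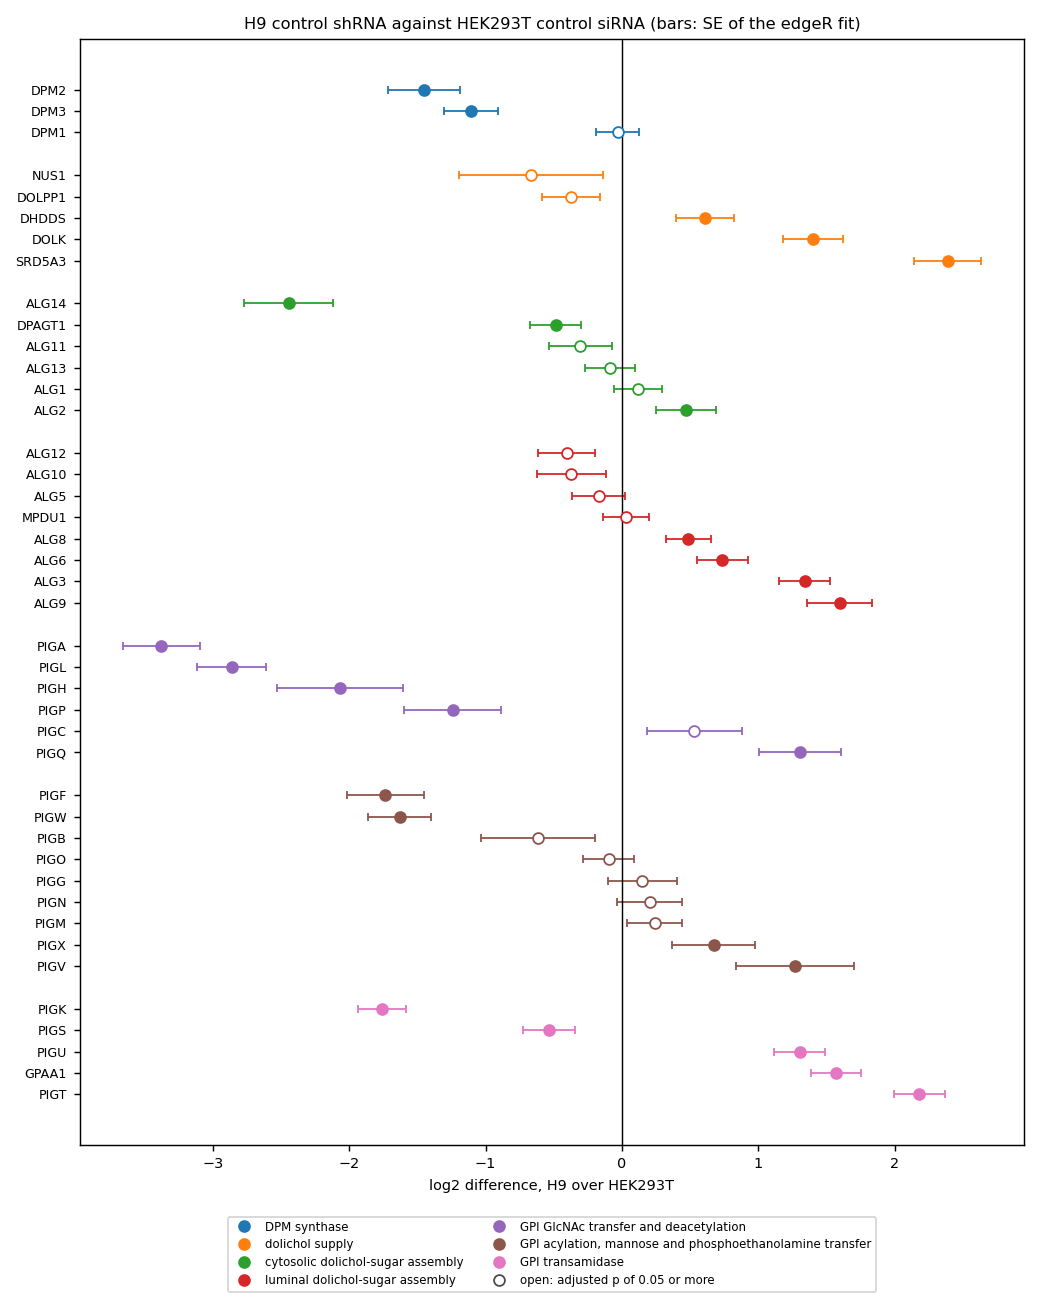
Log2 difference of each tested member between H9 control shRNA and HEK293T control siRNA (x axis, edgeR, bars are SE), grouped by step, with filled points for an adjusted p under 0.05. PIGA at -3.38 and SRD5A3 at 2.39 mark the ends of the range, and the 5 transamidase subunits lie on both sides of 0.

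Genes next to the pathway were taken from lists and are given for the HEK293T comparison of summed samples. The lists were chosen with earlier results of these data known and are no independent support. Their counts are read beside the 6.29% of all genes called lower and 6.15% called higher. Of 10 genes that make the sugar nucleotides, 3 fell and 1 rose. MPI, GMPPB and GMPPA, which make and regulate GDP-mannose, the sugar donor of DPM synthase, had log2 changes of -0.73 ± 0.13, -0.71 ± 0.15 and -0.52 ± 0.14 (SE; edgeR adjusted p = 0.000115, 0.000672 and 0.00825). Of 13 genes of the oligosaccharyltransferase and related steps 4 fell and 0 rose, among them OSTC at -0.46 and the catalytic subunit STT3A at -0.47 (edgeR adjusted p = 0.0159 and 0.0166). Of 13 genes of GPI remodelling and helper functions 2 fell and 2 rose, with TMED9, a cargo receptor subunit, at -0.58, CLPTM1L at 0.46 and the inositol deacylase PGAP1 at 0.51 (edgeR adjusted p = 0.00417, 0.0165 and 0.0338). Of 9 other users of dolichol phosphate mannose, which modify serine, threonine or tryptophan, 0 passed in edgeR, and their median was 0.24. Of 23 tested GPI-anchored proteins 2 fell, or 8.70%, near the share of all genes: the complement inhibitor CD55 at -0.78 and CNTN1 at -0.55 (edgeR adjusted p = 0.000122 and 0.0258), and 0 rose. The list medians were -0.10 for sugar nucleotides, -0.27 for the oligosaccharyltransferase, 0.01 for remodelling and -0.14 for GPI-anchored proteins, beside 0.00 for all genes tested.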

How the data were processed

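Groups and set numbers came from the sample titles. The submitters' processing notes name hg19, STAR 2.5.2b and cutadapt. Which counter, strand setting and annotation the authors chose is not given in the sources used here. They deposited raw counts, whole numbers per coding sequence. Rows that name no gene, 87.5 to 96.5% of all counts, mostly reads with more than 1 alignment, stayed out of library sizes and tests. Of 19305 accessions 18884 were named through RefSeq's table of GRCh38.p14. The mRNA-seq was not used here.

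CPM is the count per 1000000 coding reads. In HEK293T, libraries of both IP labels were summed before the main test, edgeR 4.0.16 (filterByExpr, TMM, robust quasi-likelihood, R 4.3.3), with Benjamini-Hochberg adjustment over all genes tested and a threshold of 0.05. The main fit had 2 residual degrees of freedom. SEs are log2 changes over the square root of F. The fit was also run on simulated counts as a check of the code. That simulation used a fixed spread with no difference between sets, unlike these data. It changed only genes with a mean count of at least 50, so it does not cover changes in genes with fewer reads.

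The members and lists were chosen with earlier results of these data known. Named are EIF2A, the DPM genes, every member called in an siRNA, shRNA or IP comparison, the lowest and highest member of each step, 4 members each way between cell lines, up to 3 called genes per related list, PYURF and ALG10B. A gene of a related list that this rule names is not reported here. MPDU1, ALG1, ALG5, ALG12, PIGC and PIGU, outside this rule, were named after their values were seen. Alternatives were RLE scaling, library sizes alone, other count filters, DESeq2 1.42.0, the set as a block and leaving out each library.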

Additional observations from a re-analysis of the deposited data

How the results depend on the processing

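In the summed HEK293T samples, RLE scaling, no count filter and a mean count of at least 50 each left 9 members called, DESeq2 6 (of the 32 members it gave an adjusted p) and library sizes alone 5; leaving out each sample in turn gave 3 to 10. DPM3, DPAGT1 and PIGL passed under every one of the alternatives run there. The same leave-out ranges were 1 to 7 for the CBP80 label and 0 to 4 for the eIF4E label, where the lone sample of a group is assumed to vary like the others. With the set number as a replicate block, the counts were 12 for summed samples (11 lower and 1 higher), 14 for the CBP80 label and 12 for the eIF4E label, 0 in H9 and 25 between cell lines, and the interaction between cell lines, chosen after the data were seen, called 3 members: DPM3, DPAGT1 and PIGL (edgeR adjusted p = 2.72e-05, 0.000359 and 0.0319). Deviations of equal set numbers from their group means correlated at 0.294 in HEK293T and 0.391 in H9. With 2 pairs each, these values cannot settle whether set numbers mark pairs. In H9, libraries of 1 set with different shRNA labels had a chi-square over its degrees of freedom of 1.041 and 1.074. Those of 1 shRNA label from different sets had 3.131 and 2.747. The labels name no shared culture, so the siRNA, shRNA and cell line fits used no set block. Without their block of siRNA and set, the IP label and its interaction with siRNA again called 0 members. The number of all genes called also depends on the setting. In the summed samples RLE scaling called 798 genes lower and 758 higher, and library sizes alone 294 and 739. For the other settings the share of all genes is not given here. A larger count of members is therefore not read as a stronger result.

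Some directions turned when 1 library was left out. The log2 change of EIF2A ranged from -0.88 to 0.060 in the summed samples, from -0.89 to 0.066 with the CBP80 label and from -0.86 to 0.080 with the eIF4E label, and was above 0 without the set 2 library labelled eIF2A siRNA. In H9 it ranged from -0.25 to 0.58 and was below 0 without set 1 eIF2A shRNA or set 2 control. In the summed samples PIGQ ranged from -0.42 to 0.42, PIGG from -0.094 to 0.28 and PIGK from -0.098 to 0.13. In H9, DPM1 ranged from -0.098 to 0.074 and DPM2 from -0.091 to 0.12. The cause was not tested. A fit with a trend on coding length was not run because no coding lengths were given. Depth limits H9 most, where 3 reads stand for 1.60 to 3.20 CPM.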
